A study of Mus musculus with 25 samples.

Results

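Antioxidant and glutathione defense was examined through 41 listed genes, all of which had at least 10 counts summed over 24 immunoprecipitates and were therefore measured, among 21738 genes that passed the same limit and 50559 in the table. The genes were taken by name from a list of the NRF2 axis and the glutathione, thioredoxin, peroxiredoxin and superoxide enzymes, not by a rule on their values. Earlier results of these data were known when they were chosen. The superoxide dismutase gene *Sod1* was not on the list and is not covered here. Spinal cords came from 6-mo-old male mice, 1 cord to a library. Every mouse carried *ChAT-Cre*, which drives recombination in cells that express choline acetyltransferase, and *RiboTag* fx/+, which then tags ribosomes with HA in those cells. *ChAT-BKO* mice also carried *Bmal1* fx/fx and so lost the clock activator BMAL1 in the tagged cells, whereas controls were *ChAT-Cre*;*RiboTag* fx/+ without the floxed *Bmal1* allele. Tissue was taken at ZT8 (the light period) and ZT20 (the dark period), with 6 libraries in each of the 4 groups, and 1 pooled input represents whole spinal cord RNA.

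NRF2 (*Nfe2l2*) is a transcription factor that KEAP1 holds in the cytoplasm and marks for degradation until oxidants or electrophiles release it, after which it binds antioxidant response elements, sites that the repressor BACH1 competes for. Its targets include the enzymes that make glutathione, the thiol that glutathione peroxidases and transferases spend on peroxides and reactive aldehydes. Peroxiredoxins and thioredoxins form a parallel thiol system, and superoxide dismutases and catalase act on superoxide and hydrogen peroxide. The clock enters this biology because BMAL1 and its partner CLOCK bind E-boxes, and motor neurons are studied for oxidative injury in ALS.

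Total counts ranged from 4.04 to 31.7 M per immunoprecipitate and were 7.40 M in the input. The ribosome-bound *Bmal1* transcript (listed as *Arntl*) was at 6.22 to 10.9 CPM (counts per M counts of the library) in control libraries and at 1.35 to 3.30 CPM in *ChAT-BKO* libraries, without overlap at either time. In the direction of its markers the labelled cell type held up. Above the input were 7 of 7 cholinergic genes, with a median log2 ratio of 2.82. Of astrocyte, oligodendrocyte, microglial and endothelial genes, 0 of 6 in each list were. Reads of other cells' markers remained in the immunoprecipitates. The oligodendrocyte markers summed to medians of 1893 CPM (controls) and 1837 CPM (*ChAT-BKO* mice), beside 4561 and 4451 CPM for the cholinergic markers. Erythrocyte markers summed to 269 and 277 CPM. CPM throughout is scaled with trimmed-mean (TMM) factors, and 3 counts correspond to 0.0948 to 0.734 CPM depending on the library, which limits what can be said of the rarest members.

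Promoter sequence is shown for the glutathione synthesis genes with the lowest and second lowest p between times over both genotypes. These are *Slc7a11* (chr3:49892526-50443614, minus strand), which passed an adjusted p of 0.05 in edgeR, and *Gclm* (chr3:122245557-122270732, plus strand), which did not. Both are protein-coding in GRCm38. Each line gives the 250 bases before the RefSeq start site, 5′ to 3′ on the strand of the gene, at chr3:50443614-50443863 for *Slc7a11* and chr3:122245307-122245556 for *Gclm*. Capitals mark every match, on either strand, to 3 short motifs: the E-box CACGTG, the antioxidant response element core TGACNNNGC, and TGATGNAA, the core of the composite element bound by ATF4, a stress-response activator. The last motif was chosen after the *Slc7a11* sequence had been read.
Slc7a11: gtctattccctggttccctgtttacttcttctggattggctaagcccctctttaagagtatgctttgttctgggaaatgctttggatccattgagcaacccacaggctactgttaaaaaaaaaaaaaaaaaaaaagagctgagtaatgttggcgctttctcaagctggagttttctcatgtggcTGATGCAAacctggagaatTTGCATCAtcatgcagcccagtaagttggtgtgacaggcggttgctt
Gclm: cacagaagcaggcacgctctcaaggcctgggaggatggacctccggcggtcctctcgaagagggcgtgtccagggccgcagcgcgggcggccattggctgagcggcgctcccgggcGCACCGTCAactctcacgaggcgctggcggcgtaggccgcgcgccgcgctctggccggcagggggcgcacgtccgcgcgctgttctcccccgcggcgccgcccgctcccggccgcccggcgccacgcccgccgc
The *Slc7a11* window held TGATGNAA at 66 bases before the start and on the opposite strand at 47 bases, and the *Gclm* window held TGACNNNGC on the opposite strand at 134 bases. RefSeq promoter entries (assembly GRCm38.p6) matched 35 of the 41 members through 49 promoters, each read over the same 250 bases. Among these members an E-box was found in *Prdx4* alone, the antioxidant response element core in 6 (*Gclm*, *Gstm5*, *Mgst1*, *Nfe2l2*, *Prdx1* and *Txnrd1*) and TGATGNAA in *Slc7a11* alone. Counted by promoter, the motifs were held by 1, 6 and 1 of the 49 member promoters. Over the same window of all 32851 promoters the shares were 6.02%, 10.2% and 3.45%. A match is thus a description of these letters and no more.

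Which antioxidant genes stood highest was read from their level per kilobase of transcript over the 24 immunoprecipitates, which also hold reads of other cells' markers. The peroxiredoxin *Prdx5* stood highest at 749 CPM per kb, followed by *Gstp1*, a cytosolic glutathione transferase, at 654 CPM per kb. *Gpx4*, the peroxidase that reduces lipid hydroperoxides in membranes, stood at 612 CPM per kb, *Prdx2* at 282 and the microsomal transferase *Mgst3* at 209. These levels put *Prdx5* above 99.6% of all genes with a length and *Mgst3* above 97.8%. *Slc7a11*, the cystine importer that feeds glutathione synthesis, lay at the other end at 0.220 CPM per kb, beside the extracellular superoxide dismutase *Sod3* at 0.458, *Nfe2l2* at 0.486 and the endoplasmic reticulum peroxidase *Gpx8* at 0.651. Every value of *Gpx4* and *Gstp1* was fractional, as were 87.5% of *Prdx5* values. Fractional values mean that the authors' counting split reads between these genes and other sequences. Which sequences these were was not examined, and the levels of the 3 genes carry that uncertainty.

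**Figure D1:**
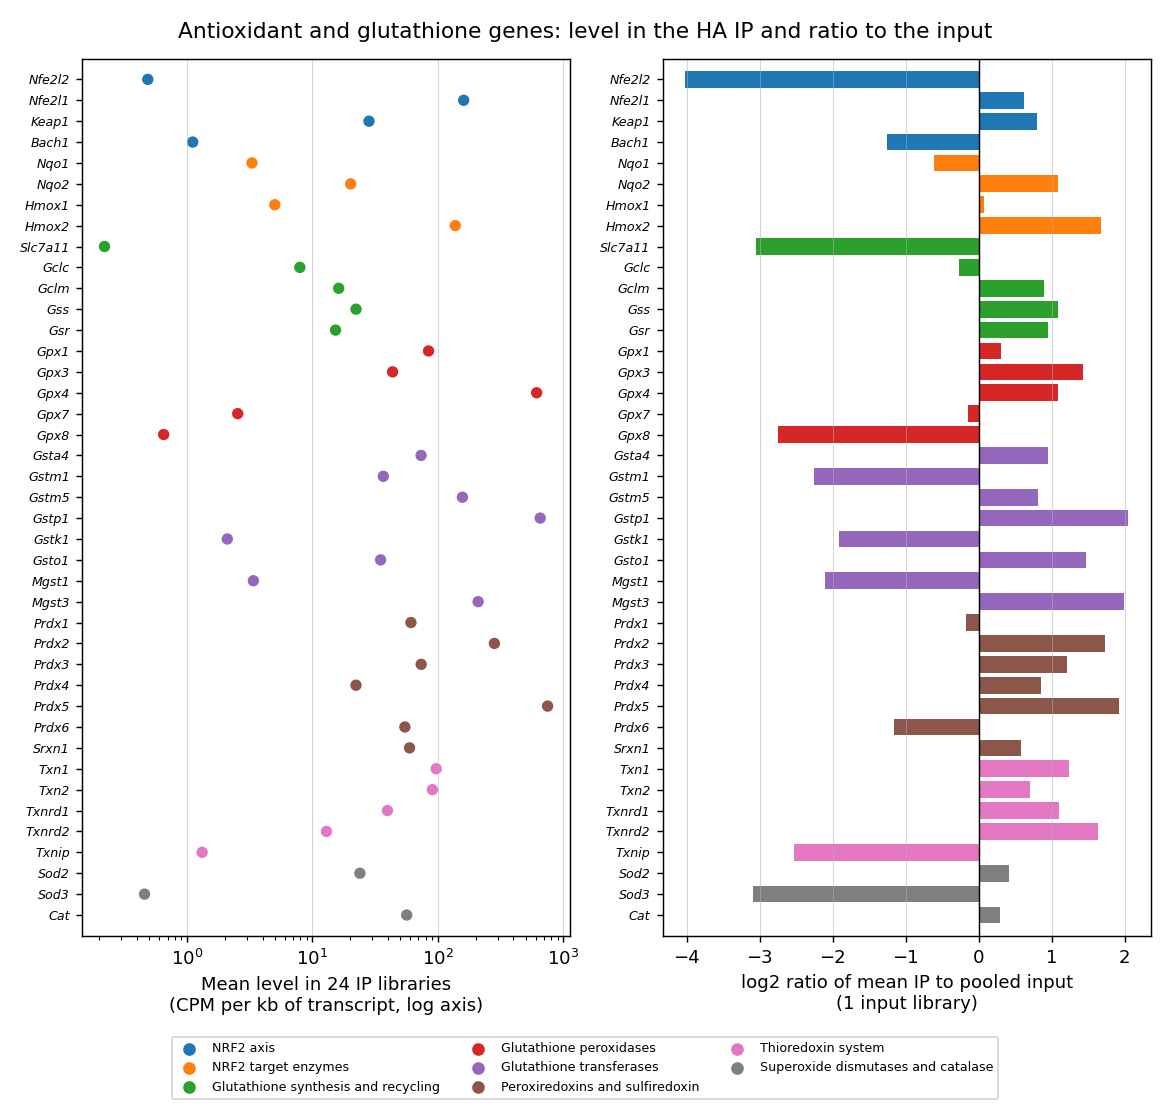
Left, mean level of each of the 41 genes in 24 immunoprecipitates in CPM per kb on a log axis, and right, log2 ratio of the mean immunoprecipitate to the 1 pooled input, coloured by role. Levels run from 0.220 CPM per kb (*Slc7a11*) to 749 CPM per kb (*Prdx5*), and ratios from -4.02 (*Nfe2l2*) to 2.05 (*Gstp1*).

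Relative to whole spinal cord, 27 of 41 members were above the input, against 43.7% of all genes counted in the input, and the median log2 ratio was 0.70 for the members and -0.23 for all genes. Scaling on raw library totals moved every ratio down by 0.45 at the median, left 23 members above the input and put *Hmox1*, *Gpx1*, *Sod2* and *Cat* below it. The share of all genes above the input was not computed under that scaling. With 1 input library these ratios have no test. The transferases *Gstp1* and *Mgst3* were 4.13-fold above the input and at a log2 ratio of 1.99, and the peroxiredoxins *Prdx5* and *Prdx2* were at 1.91 and 1.73. The heme oxygenase *Hmox2* was at 1.67, the mitochondrial thioredoxin reductase *Txnrd2* at 1.63 and the secreted-type peroxidase *Gpx3* at 1.43. Each of these genes was above the input under both scalings.

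The gene for NRF2 itself lay lowest of the 41, 16.2-fold below the input. *Nfe2l2* was at 1.20 CPM on average, with 374 counts in all 24 libraries together and as few as 2 in one of them. Its relative *Nfe2l1*, which activates proteasome genes, was at 160 CPM per kb and a log2 ratio of 0.62, and *Keap1* was at 0.79. *Bach1* was below the input at -1.26. *Slc7a11* and *Sod3* were 8.25-fold below the input and at a log2 ratio of -3.09, *Gpx8* at -2.74, and *Txnip*, the inhibitor of thioredoxin, at -2.54. The transferases *Gstm1*, *Mgst1* and *Gstk1* were at -2.26, -2.11 and -1.91, and *Prdx6*, a peroxiredoxin with one active-site cysteine, at -1.16. Astrocyte markers had a median log2 ratio of -3.98 and microglial markers of -3.85 in the same libraries, and how much of the reads of the depleted members came from such cells was not tested. In bulk immunoprecipitates, fewer tagged cells and less RNA per cell cannot be told apart.

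Whether loss of *Bmal1* altered this program was asked at each time and over both. None of the 41 genes passed an adjusted p of 0.05 in edgeR's quasi-likelihood test at ZT8 (0.184% of all genes passed), at ZT20 (0.23%) or over both times (0.741%), and none differed in its *ChAT-BKO* effect between times (0% of genes). At an unadjusted p of 0.05 the members numbered 4 at ZT8, 1 at ZT20, 0 for the difference between times and 3 over both, against 4.83%, 6.28%, 3.9% and 7.04% of all genes, and DESeq2 and limma also called 0 of 41 in each of these comparisons. The 95% interval of the log2 fold change lay within 0.5 of 0 for 33 members at ZT8, 32 at ZT20 and 35 over both times, compared with 49.9%, 49.6% and 57.8% of all genes. The median log2 fold change of the members was -0.02 at ZT8, -0.01 at ZT20 and -0.02 over both times. For all genes it was 0.00, -0.01 and 0.00. Higher in *ChAT-BKO* mice were 14, 17 and 14 of 41 members, beside 50.0%, 48.3% and 49.5% of all genes.

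**Figure D2:**
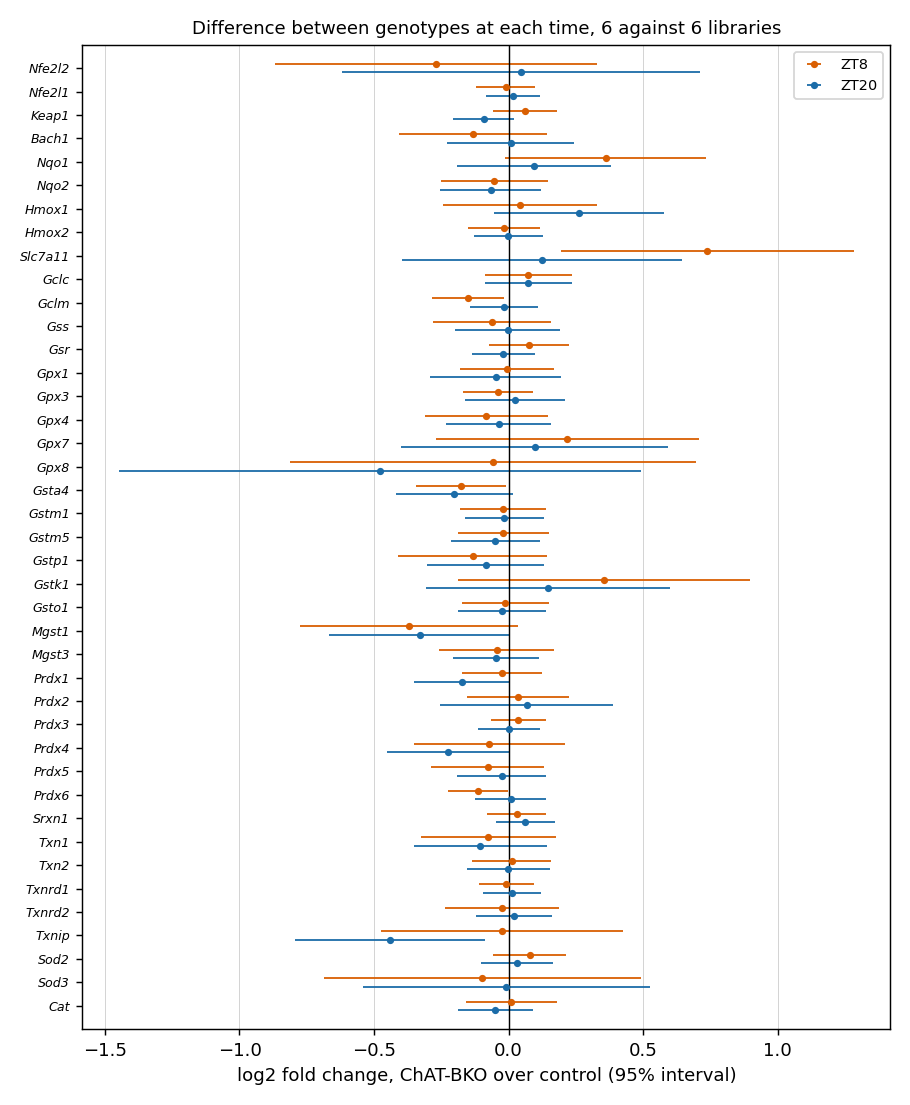
Log2 fold change of *ChAT-BKO* over control for each of the 41 genes at ZT8 (orange) and ZT20 (blue), with bars for the 95% interval, 6 against 6 libraries at each time. Most intervals cross 0 and lie within 0.5 of it. Those reaching past 0.5 belong at both times to *Nfe2l2*, *Slc7a11*, *Gpx7*, *Gpx8*, *Gstk1*, *Mgst1* and *Sod3*, at ZT8 also to *Nqo1*, and at ZT20 also to *Hmox1* and *Txnip*.

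In the NRF2 axis, the values of all 4 members overlapped between genotypes. *Nfe2l2* ranged from 0.904 to 2.03 CPM (median 1.12) in control ZT8 libraries, from 0.610 to 1.79 (1.04) in *ChAT-BKO* ZT8, from 0.611 to 2.28 (1.06) in control ZT20 and from 0.385 to 1.69 (1.26) in *ChAT-BKO* ZT20. All 4 groups overlapped, and the log2 fold change over both times was -0.12 with a 95% interval of -0.56 to 0.33, so a difference of that size in this rare transcript was not detectable at this depth. With 1 library left out the value ran from -0.21 to -0.0046. *Keap1* was measured far more tightly, between 74.2 and 100.2 CPM in all libraries, with a log2 fold change of -0.02 (-0.10 to 0.06). *Nfe2l1* was at 0.00 (-0.06 to 0.07) and *Bach1* at -0.06 (-0.22 to 0.10). *Keap1* had the lowest p of the members for a difference in effect between times, a log2 difference of -0.14 (SE 0.08), which did not pass (adjusted p = 1).

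Among NRF2 target enzymes and their relatives, the quinone reductase *Nqo1* was at a median of 4.11 CPM in control and 5.27 CPM in *ChAT-BKO* libraries at ZT8. At ZT20 its medians were 5.02 and 5.42 CPM. Ranges overlapped at both times, and the log2 fold change over both was 0.23 (SE 0.11, adjusted p = 0.724). The inducible heme oxygenase *Hmox1* was at 0.16 (-0.06 to 0.37), its constitutive relative *Hmox2* at -0.01 (-0.10 to 0.08) and *Nqo2* at -0.06 (-0.19 to 0.07).

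Glutathione synthesis and recycling held the members with the 2 lowest p at ZT8. *Slc7a11* ranged from 0.465 to 1.02 CPM (median 0.702) in controls and from 0.734 to 1.57 CPM (median 1.20) in *ChAT-BKO* mice at that time. All 6 *ChAT-BKO* values were above the control median but the groups overlapped, and the log2 fold change of 0.74 (SE 0.26, 95% interval 0.19 to 1.28) did not pass (adjusted p = 0.787). The lowest *ChAT-BKO* value, from the shallowest library, was 3 counts. *Gclm*, the modifier subunit of the rate-limiting glutamate-cysteine ligase, ranged from 49.4 to 57.1 CPM (median 54.5) in controls and from 43.9 to 52.1 CPM (median 48.2) in *ChAT-BKO* mice at ZT8. All 6 *ChAT-BKO* values were under the control median, and the difference was -0.15 on the log2 scale (SE 0.06, adjusted p = 0.995), while at ZT20 the value was -0.02. The catalytic subunit *Gclc* was at 0.07 over both times (-0.03 to 0.18), glutathione synthetase (*Gss*) at -0.03 (-0.19 to 0.12) and glutathione reductase (*Gsr*) at 0.03 (-0.06 to 0.12).

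The glutathione transferases gave the 2 lowest p over both times. *Mgst1*, a membrane-bound transferase and peroxidase, ranged from 2.05 to 3.98 CPM (median 3.38) in control ZT8 libraries and from 1.47 to 3.53 CPM (2.42) in *ChAT-BKO* ZT8 libraries. At ZT20 the ranges were 2.94 to 4.56 CPM (3.56) in controls and 2.48 to 3.66 CPM (2.78) in *ChAT-BKO* mice. The groups overlapped at each time and the log2 fold change over both was -0.35 (SE 0.12, 95% interval -0.59 to -0.11, adjusted p = 0.299), with 2 of 12 *ChAT-BKO* libraries above the control median. *Gsta4*, which conjugates the lipid peroxidation product 4-hydroxynonenal, had median levels at ZT8 of 78.7 CPM (controls) and 66.4 CPM (*ChAT-BKO* mice), and at ZT20 of 77.3 and 68.7 CPM. Its log2 fold change over both times was -0.19 (SE 0.07, adjusted p = 0.400), again with 2 of 12 *ChAT-BKO* libraries above the control median. With a term for each library's dependence of level on transcript length, *Gsta4* was at -0.14 and passed (adjusted p = 0.0185). Of the 8 transferases 7 were lower and 1 was higher in *ChAT-BKO* mice over both times, where 49.5% of all genes were higher. The transferases had a median of -0.04, and 0 passed in the main test. Fibroblast markers also lay below the input. Over both times 4 of 6 were higher and 2 lower in *ChAT-BKO* mice, with a median of 0.15 on the log2 scale, and 0 of 6 passed. Their summed level had medians of 18.1 CPM (controls) and 23.7 CPM (*ChAT-BKO* mice) at ZT8 and of 25.8 and 23.5 CPM at ZT20. Among endothelial markers 3 of 6 were higher over both times, as were 3 of 6 astrocyte markers. Skeletal muscle markers, also below the input, did differ between genotypes at ZT20. There 6 of 6 were higher in *ChAT-BKO* mice and 3 passed, with a median of 2.16 on the log2 scale. Their summed levels still overlapped between genotypes at that time. At ZT8 1 of 6 was higher, with a median of -0.16, and 0 passed. Over both times 6 of 6 were higher, with a median of 0.86, and 0 passed. The part of such cells in the *Mgst1* values was not tested.

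**Figure D3:**
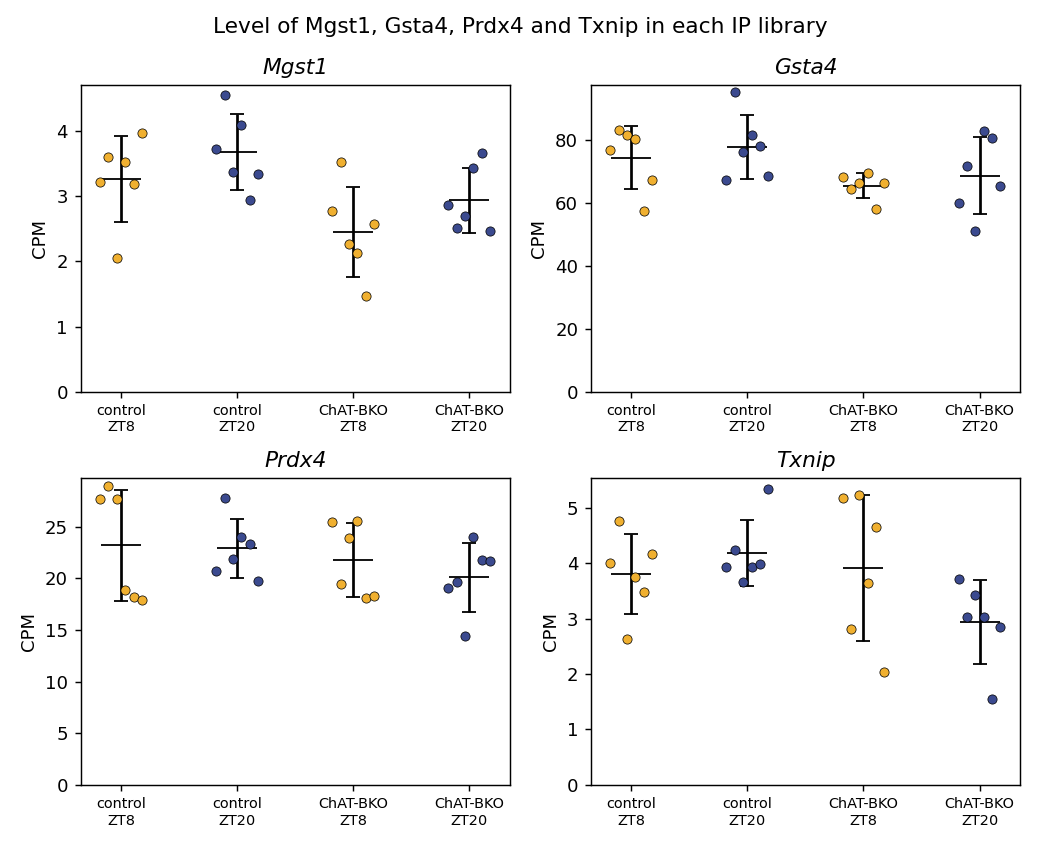
CPM of *Mgst1*, *Gsta4*, *Prdx4* and *Txnip* in each of the 24 immunoprecipitates (points), with the mean and SD of each group of 6 (bar and whiskers), ZT8 in yellow and ZT20 in blue. Groups overlap for every gene, including *Txnip* at ZT20, where *ChAT-BKO* values run from 1.54 to 3.72 CPM and control values from 3.66 to 5.35 CPM.

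In the thioredoxin system *Txnip* had the lowest p at ZT20. It ranged from 3.66 to 5.35 CPM (median 3.96) in controls and from 1.54 to 3.72 CPM (median 3.04) in *ChAT-BKO* mice at ZT20, whereas at ZT8 the medians were 3.88 and 4.15 CPM. The log2 fold change was -0.44 at ZT20 (SE 0.17, adjusted p = 0.679) and -0.02 at ZT8 (-0.47 to 0.43), where the mean level was 3.80 CPM (controls) and 3.92 CPM (*ChAT-BKO* mice), so the fitted sign at ZT8 is opposite to that of the means. The difference between these effects, -0.41 (SE 0.28), did not pass (adjusted p = 1). Thioredoxin reductase *Txnrd1* had the smallest spread of the 41 genes, a within-group coefficient of variation of 4.36%, and its log2 fold change over both times was 0.00 (-0.06 to 0.07).

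Peroxiredoxins and the sulfiredoxin *Srxn1*, which repairs overoxidized peroxiredoxins, also gave 0 of 7 calls between genotypes. The endoplasmic reticulum peroxiredoxin *Prdx4* had the lowest p of the 7 at ZT20, with means of 22.9 CPM (controls) and 20.1 CPM (*ChAT-BKO* mice) and a fitted log2 difference of -0.22 (SE 0.11, adjusted p = 0.793). That difference was -0.13 without *ChAT-BKO* ZT20 replicate 3 and -0.12 with the length term. *Srxn1* was at 0.05 over both times (-0.02 to 0.12) and mitochondrial *Prdx3* at 0.02 (-0.05 to 0.09). *Gpx4* was at -0.06 (-0.22 to 0.10), the mitochondrial superoxide dismutase *Sod2* at 0.06 (-0.04 to 0.15) and catalase (*Cat*) at -0.02 (-0.13 to 0.09). The abundant short transcripts *Gstp1*, *Prdx2* and *Gpx4* spread more within groups, with coefficients of variation of 18.5%, 20.0% and 15.7%, and *Gpx8*, at 0 in 1 library, spread by 57.1%.

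The second question was whether the genes differed between ZT8 and ZT20. Over both genotypes 1 of 41 members, *Slc7a11*, passed and was higher at ZT20, where 2.69% of all genes passed in either direction and 1.69% were higher. In controls alone and in *ChAT-BKO* mice alone 0 of 41 passed, beside 0.115% and 0.285% of all genes. At an unadjusted p of 0.05 the members numbered 1 in controls, 2 in *ChAT-BKO* mice and 5 over both genotypes, against 8.25%, 9.42% and 14.1% of all genes, and DESeq2 called 2 over both. DESeq2 called 0 of the 38 members to which it gave an adjusted p in controls and 0 of 37 in *ChAT-BKO* mice, and in both it gave none to *Slc7a11*. The median log2 difference of the members over both genotypes was 0.03, with 25 of 41 higher at ZT20, beside 0.00 and 50.2% for all genes, and 37 members had a 95% interval within 0.5 of 0, as did 56.3% of all genes.

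**Figure D4:**
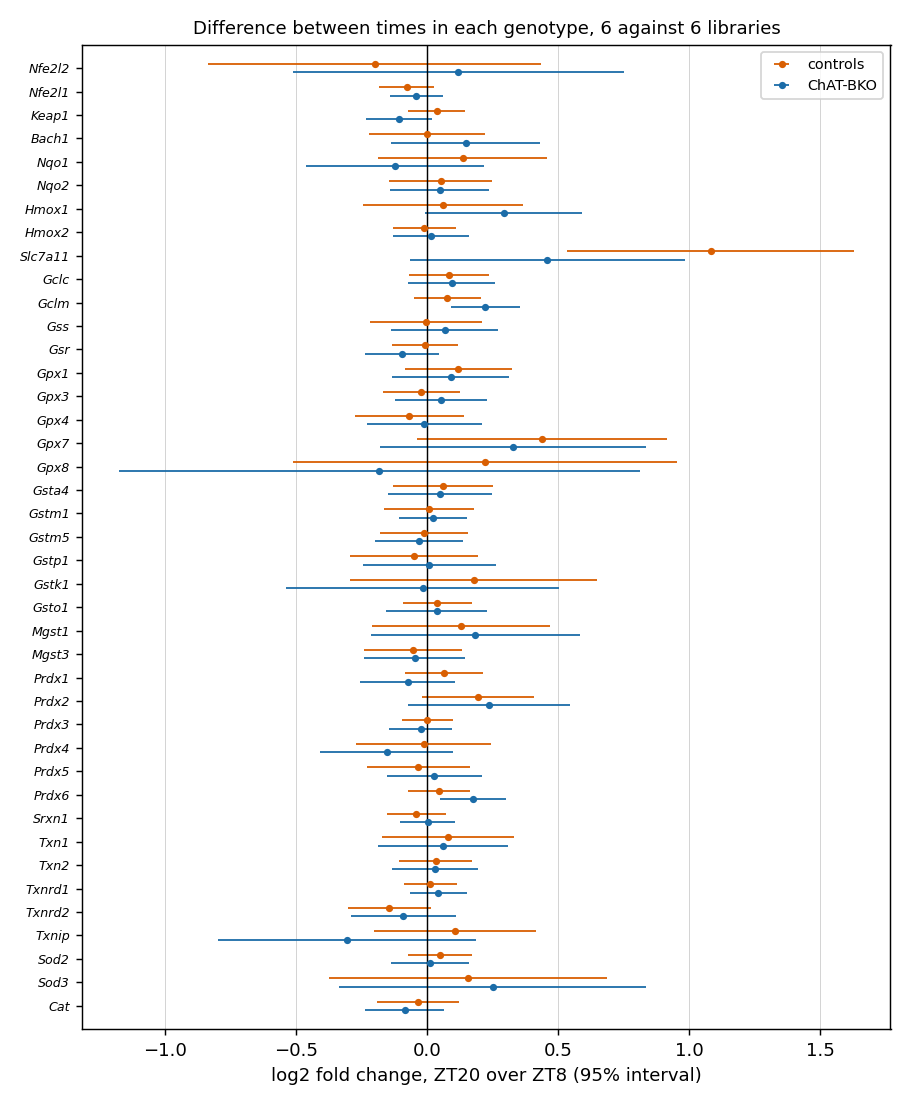
Log2 fold change of ZT20 over ZT8 for each of the 41 genes in controls (orange) and in *ChAT-BKO* mice (blue), with bars for the 95% interval, 6 against 6 libraries in each genotype. *Slc7a11* in controls, at 1.08, lies farthest from 0, and its *ChAT-BKO* value is 0.46.

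*Slc7a11* exchanges glutamate for cystine at the plasma membrane and supplies the cysteine of glutathione. In controls the median was 0.702 CPM at ZT8 and 1.44 CPM at ZT20, with ranges of 0.465 to 1.02 and 1.23 to 2.36 CPM that did not overlap. The share of all genes whose control ranges separate in this way was not counted. In that comparison 8.25% of all genes had an unadjusted p under 0.05 in edgeR. In *ChAT-BKO* mice the medians were 1.20 and 1.69 CPM and the ranges, 0.734 to 1.57 and 0.571 to 2.14 CPM, overlapped. The log2 difference over both genotypes was 0.74 (SE 0.18, 95% interval 0.37 to 1.12, adjusted p = 0.0196), a 1.67-fold higher level at ZT20, and 11 of 12 ZT20 libraries were above the ZT8 median. Within controls it was 1.08 (SE 0.26, adjusted p = 0.168) and within *ChAT-BKO* mice 0.46 (SE 0.25, adjusted p = 0.613), and the difference between genotypes, -0.62 (95% interval -1.35 to 0.10), did not pass (adjusted p = 1). These values rest on 407 counts in all 24 libraries, between 3 and 40 in each. The annotated gene spans 551.1 kb and overlaps 2 other transcripts on its own strand, and 8.33% of its values were fractional.

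Because *Slc7a11* lay below the input, markers of other cells are given beside it. The summed endothelial and vascular markers ranged from 18.6 to 25.7 CPM at ZT8 (median 19.5) and from 18.5 to 35.7 CPM at ZT20 (median 26.1), and 1 of 6, the tight junction gene *Cldn5*, passed, with a log2 difference of 0.73 (adjusted p = 0.00167). Fibroblast markers had medians of 22.5 and 25.5 CPM and astrocyte markers of 192 and 196 CPM, and 0 of 6 passed in each list. Oligodendrocyte and microglial markers also gave 0 of 6 each. Of the erythrocyte markers 4 of 5 passed as higher at ZT20, with summed medians of 232 CPM at ZT8 and 355 CPM at ZT20. None of these markers was at 0 in all libraries. Their part in the *Slc7a11* difference was not tested.

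**Figure D5:**
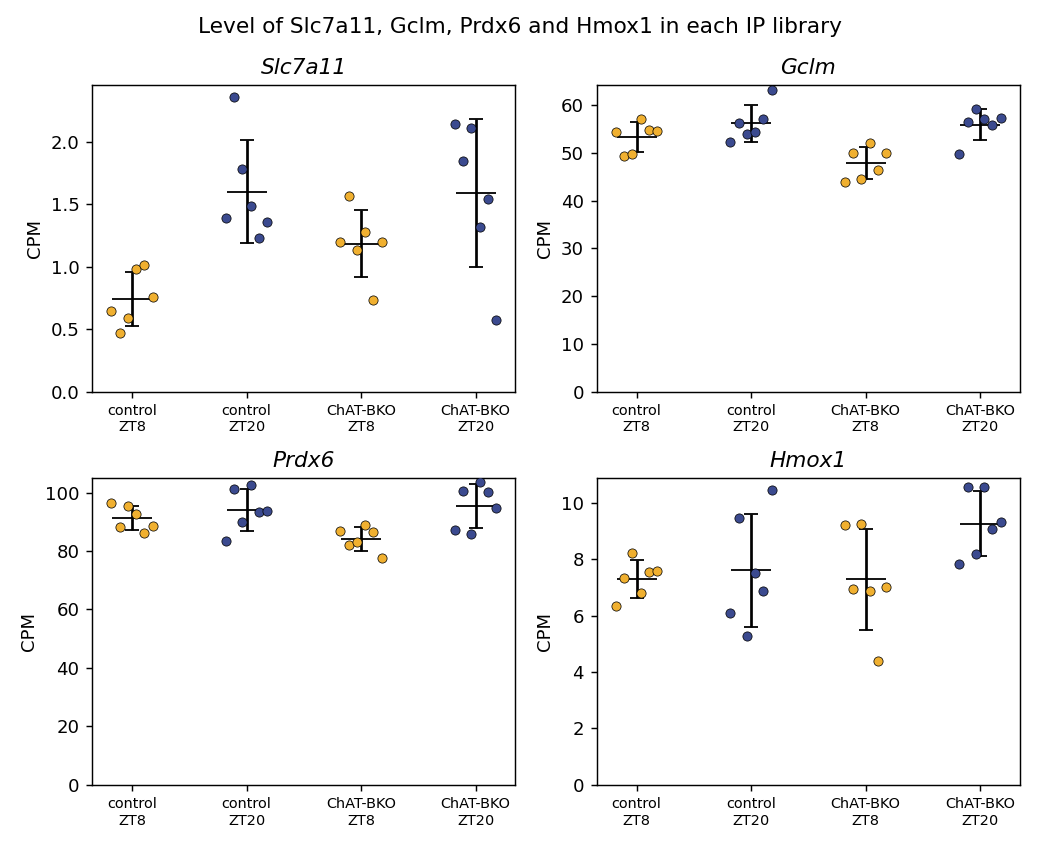
CPM of *Slc7a11*, *Gclm*, *Prdx6* and *Hmox1* in each of the 24 immunoprecipitates (points), with the mean and SD of each group of 6 (bar and whiskers), ZT8 in yellow and ZT20 in blue. The control groups separate for *Slc7a11*, at 0.465 to 1.02 and 1.23 to 2.36 CPM, and overlap for the other genes shown. The share of all genes that separate was not counted.

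*Gclm* had the second lowest p. Its medians were 54.5 CPM at ZT8 and 55.3 CPM at ZT20 in controls, and 48.2 and 56.8 CPM in *ChAT-BKO* mice. The ranges overlapped in both genotypes, although all 6 *ChAT-BKO* values at ZT20 were above the *ChAT-BKO* median at ZT8. Over both genotypes the log2 difference was 0.15 (SE 0.04, 95% interval 0.06 to 0.23, adjusted p = 0.0633). It was 0.08 in controls (adjusted p = 0.806) and 0.22 in *ChAT-BKO* mice (adjusted p = 0.193), and the difference of 0.15 between genotypes did not pass (adjusted p = 1). DESeq2 placed *Gclm* past the threshold over both genotypes (0.14, adjusted p = 0.0361). *Gclc* was at 0.09 (adjusted p = 0.495) and *Gsr* at -0.05 (adjusted p = 0.650).

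The other members with an unadjusted p under 0.05 over both genotypes were *Prdx6*, *Gpx7* and *Prdx2*, and none passed. *Prdx6* had medians of 90.6 and 93.4 CPM at ZT8 and ZT20 in controls and of 84.9 and 97.5 CPM in *ChAT-BKO* mice, a log2 difference of 0.11 over both genotypes (SE 0.04, adjusted p = 0.194). *Gpx7*, an endoplasmic reticulum peroxidase, had medians of 1.44 and 2.29 CPM in controls and 1.84 and 2.32 CPM in *ChAT-BKO* mice, a difference of 0.38 (SE 0.17, adjusted p = 0.275). *Prdx2*, which is also abundant in red cells, ranged from 319 to 481 CPM at ZT8 and from 309 to 678 CPM at ZT20, a difference of 0.21 (SE 0.10, adjusted p = 0.325). Summed erythrocyte markers ranged from 160 to 403 CPM at ZT8 (median 232) and from 209 to 611 CPM at ZT20 (median 355), and 4 of 5, the globin genes, passed as higher at ZT20, the largest being *Hba-a1* at 0.71 (adjusted p = 0.00357). Their part in the *Prdx2* values was not tested.

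*Hmox1* had the third lowest p in *ChAT-BKO* mice, with medians of 6.98 CPM at ZT8 and 9.19 CPM at ZT20 and a log2 difference of 0.29 (SE 0.14, adjusted p = 0.545). In controls its medians were 7.44 and 7.18 CPM. *Txnrd2* had the third lowest p in controls, with medians of 24.8 and 22.7 CPM and a difference of -0.14 (SE 0.08, adjusted p = 0.650). The NRF2 axis showed 3 of 4 members lower at ZT20 over both genotypes, with log2 differences from -0.06 to 0.07, and *Nfe2l2* at -0.05 (-0.50 to 0.40).

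Further genes of the same pathways, 60 by name and 57 with enough counts, were read from a separate list of ferritins, small MAF proteins, NADPH-producing enzymes, glutaredoxins and other transferases. Between genotypes over both times 1 of 57 passed, where 0.741% of all genes did, and this was *Aifm2*, which encodes the ubiquinone reductase FSP1 that limits lipid peroxidation. It was higher in *ChAT-BKO* mice by 0.27 on the log2 scale (SE 0.06, adjusted p = 0.0251), and 0 of 57 passed as lower. The transferase *Gstm7* was at 0.36 (adjusted p = 0.0535) and the glutaredoxin *Glrx* at 0.22 (adjusted p = 0.150). At ZT20 relative to ZT8 over both genotypes 1 of 57 passed, beside 2.69% of all genes, namely the thioredoxin-glutathione reductase *Txnrd3*, which fell by 0.23 on the log2 scale (SE 0.05, adjusted p = 0.0138), and the ferritin light chain *Ftl1* was at 0.20 (adjusted p = 0.0983). In the other 5 comparisons 0 of 57 passed in edgeR, with 4, 3, 0, 2 and 2 at an unadjusted p of 0.05 at ZT8, at ZT20, for the difference between times, in controls and in *ChAT-BKO* mice, against 4.83%, 6.28%, 3.9%, 8.25% and 9.42% of all genes. These genes were named after their values were seen.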

How the data were processed

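Ribosomes were immunoprecipitated from snap-frozen cords and RNA with an integrity number over the study's minimum was made into Illumina Stranded mRNA libraries. The authors aligned reads to mm10 with STAR (2.7.5) and deposited expected counts per gene from RSEM, 1 column per library, with 6.11% of values not whole. These expected counts were rounded and tested with edgeR 4.0.16 (R 4.3.3): TMM factors, quasi-likelihood fits of the libraries compared, and Benjamini-Hochberg adjustment over all 21738 genes with at least 10 counts, passing at an adjusted p under 0.05. Fits over both times or genotypes used all 24 immunoprecipitates. Alternatives used DESeq2 1.42.0 and limma 3.58.1, other filters and factors, a replicate block, a term for the slope of level on transcript length (GENCODE gene models of GRCm38), and each library left out. The replicates were separate mice, and all 60 pairs within groups differed by more than counting noise. Fits were tested on simulated data.

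The members and lists were chosen with earlier results of these data known. Genes named are those called, the 3 lowest p in each comparison, the 4 highest and 4 lowest ratios to the input, and *Nfe2l2*, *Keap1* and *Bach1*, and others given by role are descriptions. Intervals cover counting and replicate error, whereas the 3-count floor only expresses 3 counts as CPM in each library. The input, a single library, entered no test.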

Additional observations from a re-analysis of the deposited data

Results flagged for a closer look

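In 76 groups of 6 libraries, 19 members in 4 groups each, 4 values lay apart from the other 5 of their group, where chance gives about 3.8. *Gclm* was at 49.7 CPM in *ChAT-BKO* ZT20 replicate 1, while the other libraries of that group lay between 55.9 and 59.1 CPM. *Keap1* was at 74.2 CPM in *ChAT-BKO* ZT20 replicate 3, with the others between 84.7 and 91.0 CPM. *Prdx5* was at 672 CPM in control ZT20 replicate 2, with the others between 527 and 566 CPM. *Txnip* was at 5.35 CPM in control ZT20 replicate 6, with the others between 3.66 and 4.23 CPM.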

How the results depend on the processing

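Across the alternatives and libraries left out, 0 of 41 members passed between genotypes at ZT8, at ZT20 or for the difference between times, except that edgeR's expression filter left *Gpx8* untested. With the length slope as a term, 1 member passed between times in controls (*Slc7a11*), 2 in *ChAT-BKO* mice (*Gclm* and *Prdx6*), 4 over both genotypes (*Slc7a11*, *Gclm*, *Prdx2* and *Prdx6*) and 2 between genotypes over both times (*Gsta4* and *Sod2*), while calls over all genes went from 585 to 1541 for time and from 161 to 402 for genotype. DESeq2 and edgeR's own expression filter each called 2 for time, *Slc7a11* and *Gclm*, and with 1 library left out the count was 1 to 2. *Gclm* passed without control ZT20 replicate 1, *ChAT-BKO* ZT20 replicate 1 or control ZT8 replicate 4 (adjusted p 0.0425 to 0.118 over all libraries left out). *Slc7a11* passed throughout for time over both genotypes (adjusted p 0.00411 to 0.0445). *Txnrd3* did too (0.00125 to 0.0308), whereas *Aifm2* lost its call in 5 of 24 fits with 1 library left out (up to 0.0610).

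Small differences between genotypes over both times changed sign: *Mgst3* (0.0037) and *Keap1* (0.0026) with the length slope, and with 1 library left out *Keap1* (-0.034 to 0.0072), *Prdx2* (-0.0084 to 0.10) and *Sod3* (-0.11 to 0.029). The cause was not tested. DESeq2 called 70, 93, 127, 218 and 971 genes at ZT8, at ZT20, in controls, in *ChAT-BKO* mice and for time over both genotypes, against 40, 50, 25, 62 and 585 in edgeR. A fit with a replicate block called 0 members in each comparison except time over both genotypes, where it called 1, and 69 and 86 genes at ZT8 and between times in controls, against 40 and 25. Libraries of the same number deviated together by a correlation over 0.1 in only 3 of 6, 2 of 6, 2 of 6 and 0 of 6 pairs, so the numbers were not taken as a pairing. Depth limits the members at about 2 CPM or less, *Nfe2l2*, *Slc7a11*, *Sod3*, *Gpx8*, *Gstk1* and *Gpx7*. Between genotypes their 95% intervals reached past 0.5 on the log2 scale at both times, as did those of *Mgst1*.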
